A study of Mus musculus with 11 samples.

Results

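Cholesterol synthesis, export and sterol sensing genes were measured in LSEC, the liver sinusoidal endothelial cells, whose fenestrated layer lines the capillaries of the liver. Of 30 genes chosen by name for their roles, 27 were found among the 19505 gene symbols of the Mouse Clariom S platform, each with 1 transcript cluster, the set of probes that is summarized for a transcript. Acat2, Srebf1 and Soat1 were not analysed here. The 5 knockout arrays came from mice titled autophagy deficient, which carried floxed Atg5 alleles together with VE-cadherin-Cre, a recombinase whose promoter is active in endothelial cells. Atg5 is needed to form autophagosomes. The 6 wild type arrays came from mice with the same floxed Atg5 alleles and no Cre. Both genotypes were fed a high fat diet from an age of 8 weeks, and their LSEC were taken after 2 weeks of it. Each array was labelled as a biological replicate. The labels do not say whether an array holds 1 animal or a pool, so every p-value refers to the spread among these samples only.

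Cells make cholesterol from acetyl units through mevalonate, isoprenoid diphosphates, squalene and lanosterol. When sterols in the endoplasmic reticulum are low, the escort protein Scap carries the transcription factor precursor SREBP to the Golgi, where proteases free the active factor, which raises the synthesis genes. When sterols are high, the Insig proteins hold Scap in the endoplasmic reticulum. Insig1 is itself a target of SREBP. Oxysterols activate the LXR receptors, which raise the exporters Abca1 and Abcg1. LSEC take up modified lipoproteins from the blood, and their fenestrae are sensitive to membrane cholesterol.

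Values are log2 levels after the authors' normalization. LSEC markers were high in both genotypes, with a mean level over 19 markers between 11.70 and 12.05 in knockout arrays and between 11.69 and 12.07 in wild type arrays. Atg5 was not lower in knockout arrays (7.60 ± 0.17, SD, n = 5) than in wild type arrays (7.50 ± 0.09, SD, n = 6), and where its probes lie relative to the floxed part is not known here, so the directions follow the labels. Markers of other cells differed between genotypes. For macrophage markers the knockout minus wild type difference was positive in 17 of 17 measured, and their mean level was 7.77 to 10.13 in knockout arrays and 7.21 to 8.45 in wild type arrays. For hepatocyte markers the difference was negative in 21 of 21, and their mean level was 7.68 to 9.15 in knockout arrays and 8.55 to 9.93 in wild type arrays. Stellate cell markers were positive in 9 of 9 (median 0.42) and cholangiocyte markers negative in 4 of 4 measured (median -0.26), with 0 of either called by the rule given below. That rule called 15 of the 17 macrophage markers higher, against 0.671% of all clusters, and 15 of the 21 hepatocyte markers lower, against 0.356%. Of all clusters 46% had a positive difference. In such bulk samples fewer cells of a type and less RNA per cell cannot be told apart. The platform's negative control probe sets, taken here from their row names to be its intron controls, differed between arrays across the genotypes. Their mean was 5.75 to 5.96 in 4 arrays (knockout arrays 3 and 4 and wild type arrays 1 and 6) and 5.05 to 5.38 in the other 7. These are called the high and low intron control arrays below, a split made after the data were seen.

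Insig1 was the 1 gene of the 27 that was called, and it was higher in knockout LSEC. Genes were called by the rule in the series' design text, a change of 1.5-fold or more together with an unadjusted p no higher than 0.05, taken here from limma. By that rule 1 of 27 genes was higher, against 0.671% of all 22206 clusters, and 0 of 27 were lower, against 0.356%, which is 1 of 27 against 1.03% in either direction. With Benjamini-Hochberg adjustment over all clusters in limma, 0 of 27 genes and 0% of clusters passed 0.05, while 6.39% of clusters had an unadjusted p of at most 0.05. The genotypes were free of overlap for 0 of 27 genes, against 0.473% of clusters. The log2 differences of the 27 genes had a median of 0.04, and 17 were positive and 10 negative. Over all clusters the median was -0.02. Leaving out single arrays turned the genes' median to -0.07 (without knockout array 2), -0.03 (without wild type array 1) or -0.01 (without knockout array 1).

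**Figure D1:**
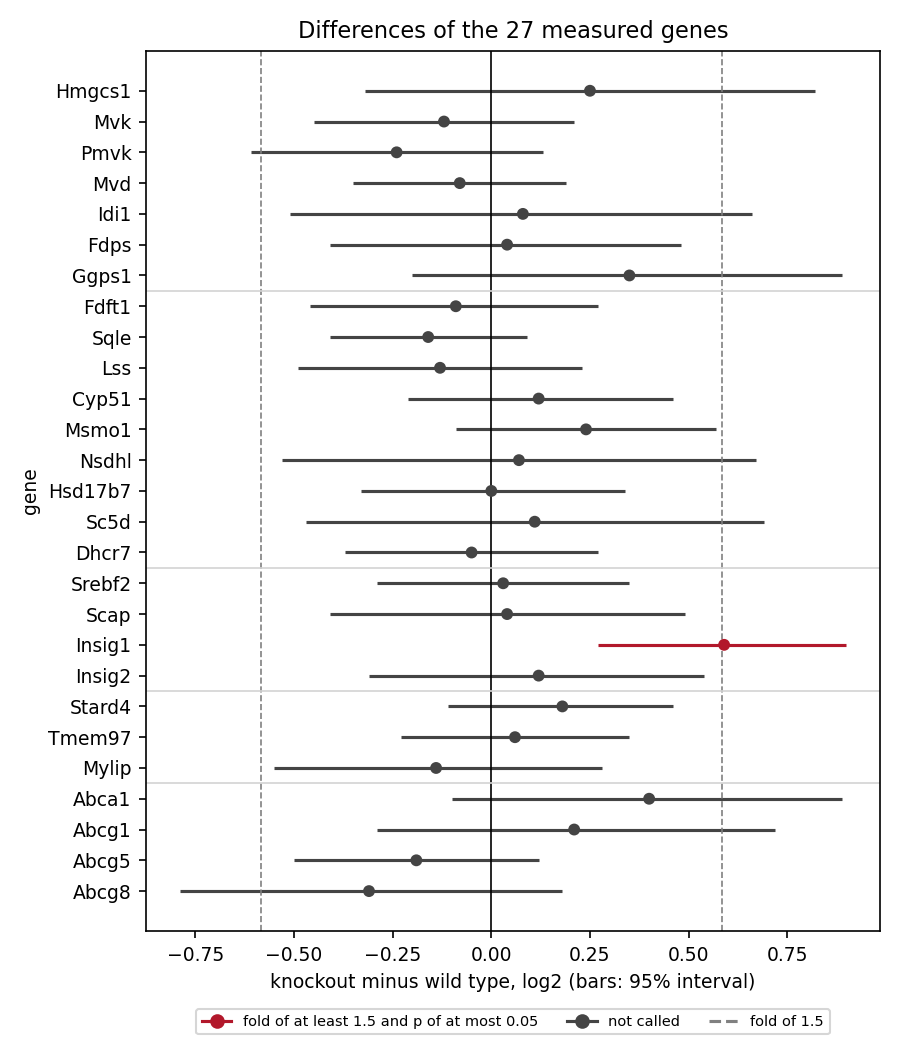
Log2 difference of each measured gene, knockout minus wild type (x axis), with the 95% interval of the limma fit over 5 knockout and 6 wild type arrays. Genes run down the page by role, dashed lines mark a fold of 1.5 in each direction, and Insig1 (0.59, interval 0.27 to 0.90) is the 1 gene whose interval does not cover 0.

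Insig1, which retains Scap and so lowers SREBP activation, read 9.26, 9.55, 9.58, 9.79 and 9.67 in knockout arrays 1 to 5. In the 6 wild type arrays it read 8.61 at the lowest, 9.02 at the median and 9.27 at the highest. Each of the 5 knockout arrays exceeded the wild type mean, and 4 of them exceeded every wild type array. The groups overlapped only where knockout array 1 (9.26) met wild type array 6 (9.27). Knockout arrays averaged 9.57 ± 0.20 (SD, n = 5) and wild type arrays 8.98 ± 0.27 (SD, n = 6). The ratio was 1.5-fold, or a log2 difference of 0.59 (SE 0.15), with limma p = 0.00135, adjusted p = 0.765 and a two-sided exact permutation p = 0.00649.

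Within each intron control class the genotypes did not overlap for Insig1. That follows from the readings above, since knockout array 1 is in the low class and wild type array 6 in the high class. It therefore adds no support of its own. In the low class the knockout arrays read 9.26, 9.55 and 9.67, against 8.61, 8.77, 8.85 and 9.19 in wild type arrays. In the high class the knockout arrays read 9.58 and 9.79, against 9.20 and 9.27 in wild type arrays. Such a separation in both classes, with knockout higher, held for 0.937% of all clusters. The limma difference was 0.64 (SE 0.18, adjusted p = 0.668) in the low class and 0.45 (SE 0.14, adjusted p = 0.766) in the high class. With the intron control mean as a covariate it was 0.57 (SE 0.12, adjusted p = 0.397 in limma).

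Since the fold stood at the limit of the rule, the call was lost without knockout array 4 (0.53) or 5 (0.56) or wild type array 2 (0.56), 3 (0.55) or 4 (0.51). The difference was 0.60 (SE 0.20) when the macrophage marker mean was added as a covariate, 0.55 (SE 0.20) with the hepatocyte marker mean and 0.47 (SE 0.42) with both. Insig1 further missed the rule with the hepatocyte mean, both means, the intron control mean, the intron control class as a block (0.57), the high class alone and repeated quantile normalization (0.48), and met it with the macrophage mean. Over 25 alternative fits it ran from 0.45 to 0.67 and the adjusted p from 0.279 to 0.988.

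**Figure D2:**
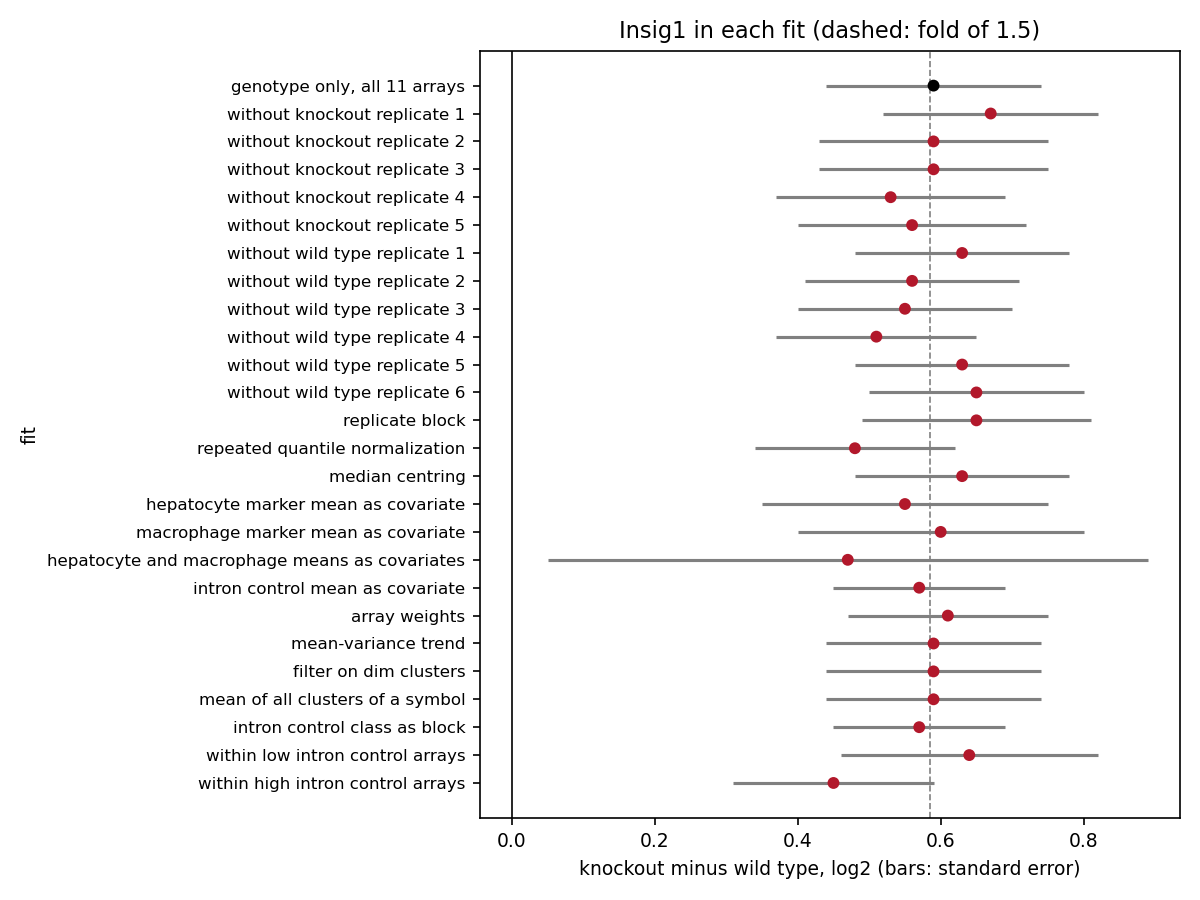
Insig1 difference, log2 scale, knockout minus wild type (x axis, bars are the standard error), in the fit with genotype only (black) and in 25 alternative fits (red). All lie above 0, between 0.45 and 0.67, on both sides of the dashed line that marks a fold of 1.5.

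The paralog Insig2, which also retains Scap, read 7.25, 7.45, 6.82, 7.21 and 6.73 in knockout arrays. In wild type arrays it ran from 6.43 over a median of 6.99 to 7.55. The groups overlapped throughout, with a difference of 0.12 (SE 0.20, 95% interval -0.31 to 0.54). Insig1 was set against each of the other 26 genes by the exact permutation test of the difference between their log2 values in each array, a comparison chosen after its value was seen. The difference between the differences was 0.47 for Insig2 (exact permutation p = 0.0909, 0.148 adjusted over the 26), 0.34 for Hmgcs1 (0.271, adjusted 0.306) and 0.75 for Sqle (0.00649, adjusted 0.075). Of the 26 comparisons 11 had an unadjusted exact permutation p of at most 0.05 and 0 passed after adjustment, so a change particular to Insig1 was not shown.

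**Figure D3:**
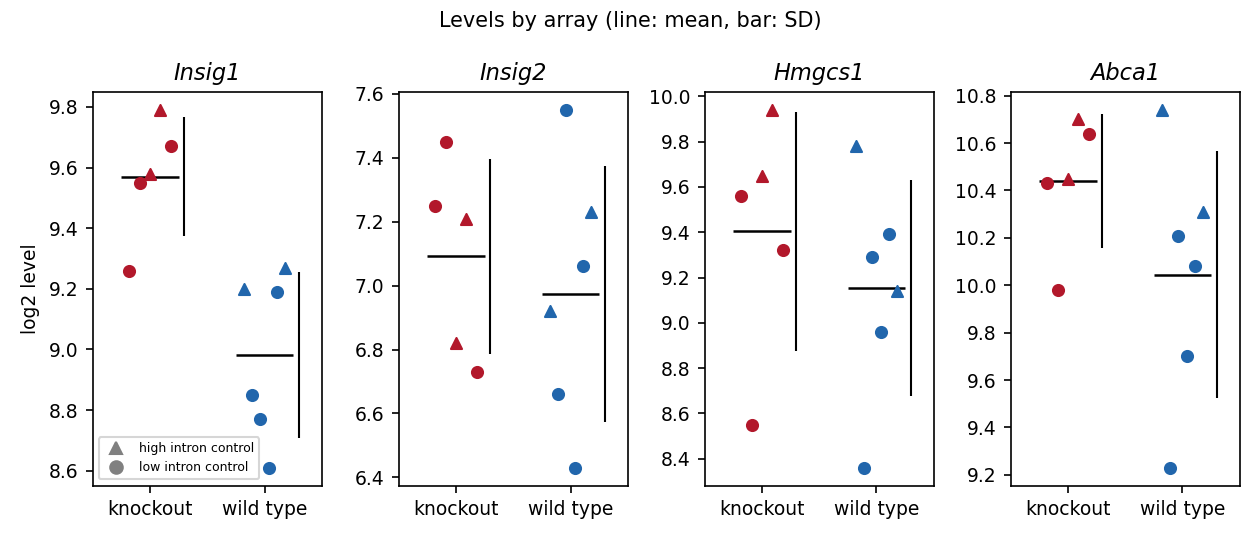
Log2 level (y axis, a scale of its own for each gene) of Insig1, Insig2, Hmgcs1 and Abca1 in 5 knockout arrays (red, left) and 6 wild type arrays (blue, right), with the mean and SD. Triangles are the 4 high intron control arrays. Insig1 overlaps between genotypes only at 9.26 and 9.27. Hmgcs1 overlaps over most of its range, and the knockout arrays of Insig2 and Abca1 lie within the wild type range.

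The promoters of Insig1, the called gene, and of Hmgcs1, a classical SREBP target that was not called, are shown with sequence motifs in capitals. Whether a sterol factor binds any of these motifs was not tested. The promoters are the 250 bases before each start in RefSeq (GRCm38.p6), at chr5:28071162-28071411 (plus strand) for Insig1 and chr13:119690101-119690350 (plus strand) for Hmgcs1. Capitals mark an E-box (CACGTG) 101 bases before the start of Insig1, a sterol regulatory element form (TCACNCCAC) 137 bases before the start of Hmgcs1 and, in both, CCAAT boxes, which read ATTGG on the printed strand.
Insig1: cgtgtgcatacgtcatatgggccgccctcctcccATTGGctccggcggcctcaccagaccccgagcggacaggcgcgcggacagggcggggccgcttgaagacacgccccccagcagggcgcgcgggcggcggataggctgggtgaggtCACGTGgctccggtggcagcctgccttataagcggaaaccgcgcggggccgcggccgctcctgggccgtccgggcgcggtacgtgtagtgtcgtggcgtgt
Hmgcs1: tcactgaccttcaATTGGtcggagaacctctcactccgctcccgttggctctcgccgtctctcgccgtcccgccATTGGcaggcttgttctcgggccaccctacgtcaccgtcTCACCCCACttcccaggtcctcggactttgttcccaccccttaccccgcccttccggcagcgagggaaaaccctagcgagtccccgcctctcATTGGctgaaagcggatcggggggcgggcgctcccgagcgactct

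Of the 27 genes 22 had a promoter in the RefSeq table, with 29 starts. Fdps, Fdft1, Sqle, Stard4 and Abcg1 had no entry. All motifs were searched on both strands in the 250 bases before the start, and no marked motifs overlap in the promoters printed. A gene counted if any of its starts held the motif, while the share of all promoters counts each start by itself. The counts of genes and these shares are therefore not like for like. TCACNCCAC was in 1 of the 22 genes (Hmgcs1) and in 1.05% of all 32851 promoters. The E-box was in 6 genes (Abca1, Dhcr7, Hsd17b7, Insig1, Sc5d and Scap) and in 6.02% of all promoters. CCAAT was in 19 genes and 33.8% of all promoters, and the GC box GGGCGG in 18 genes and 32.7%. Insig1 held the E-box, the CCAAT box and the GC box in this window and not the sterol element form. Its paralog Insig2 held no E-box there.

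The other sensors and carriers of the SREBP pathway were not called. Srebf2, the SREBP precursor that chiefly drives sterol synthesis, read 9.71, 10.18, 9.73, 9.59 and 9.66 in knockout arrays, against 9.46 at the lowest, 9.71 at the median and 10.08 at the highest in wild type arrays. Knockout array 2 was the highest of all arrays, and the difference was 0.03 (SE 0.15, 95% interval -0.29 to 0.35). Scap read 8.33, 8.96, 7.79, 8.27 and 7.88 in knockout arrays, against 7.81, 8.21 and 8.57 as the lowest, median and highest in wild type arrays. Its difference was 0.04 (SE 0.21). Knockout array 2, the highest for both genes, also had the highest macrophage marker mean (10.13), and without it the differences were -0.07 for Srebf2 and -0.14 for Scap. With the macrophage mean as a covariate they were -0.29 for Srebf2 and -0.42 for Scap, and with the hepatocyte mean 0.29 and 0.35, so their sign depended on which markers entered the fit.

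The mevalonate arm makes the isoprenoid units. Its 7 measured genes had a median difference of 0.04 (4 positive and 3 negative), and 0 were called. Hmgcs1, the synthase of the HMG-CoA unit, read 9.56, 8.55, 9.65, 9.94 and 9.32 in knockout arrays. In wild type arrays it ran from 8.36 over a median of 9.21 to 9.78. Knockout array 2 and wild type array 2 were low, and both groups covered nearly the same range, with a difference of 0.25 (SE 0.26, exact permutation p = 0.422). It was 0.46 (SE 0.23) without knockout array 2 and 0.09 (SE 0.24) without wild type array 2.

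Ggps1, which makes the geranylgeranyl donor for protein prenylation, had the largest difference of this arm. It read 9.56, 8.96, 9.76, 9.89 and 9.50 in knockout arrays, against 8.44, 9.25 and 9.77 as the lowest, median and highest in wild type arrays. The difference was 0.35 (SE 0.25, exact permutation p = 0.271). With the macrophage mean as a covariate both genes met the rule, Ggps1 at 0.86 (SE 0.28, adjusted p = 0.279 in limma) and Hmgcs1 at 0.70 (SE 0.31, adjusted p = 0.32). In that fit the rule called 1175 of all 22206 clusters higher, against 149 with genotype alone. With the hepatocyte mean Ggps1 was -0.05 (SE 0.29) and Hmgcs1 0.07 (SE 0.34), and with both means 0.62 (SE 0.58) and 1.23 (SE 0.62), which did not meet the rule. Pmvk, the kinase that adds the second phosphate to mevalonate, lay below the wild type mean in all knockout arrays, which read 6.45, 6.55, 6.35, 6.03 and 6.31. The wild type arrays read 6.09 at the lowest, 6.68 at the median and 7.02 at the highest, so the groups overlapped (-0.24, SE 0.17, exact permutation p = 0.221). The mevalonate kinase Mvk (-0.12, SE 0.15), the decarboxylase Mvd (-0.08, SE 0.13), the isomerase Idi1 (0.08, SE 0.27) and the farnesyl diphosphate synthase Fdps (0.04, SE 0.21) differed by less than their standard error.

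The sterol arm turns farnesyl diphosphate into cholesterol. Its 9 genes differed by -0.16 to 0.24 (5 positive and 4 negative, median 0.00), and 0 were called. Msmo1, the methyl sterol oxidase, had the largest difference. It read 7.43, 7.26, 7.31, 6.91 and 6.70 in knockout arrays, against 6.69, 6.86 and 7.25 in wild type arrays (lowest, median and highest). Knockout arrays 1 to 3 lay above all wild type arrays and knockout array 5 near the lowest (0.24, SE 0.15, exact permutation p = 0.158).

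Sqle, the squalene epoxidase and a rate-limiting step, lay lowest in this arm relative to wild type. It read 5.72, 5.42, 5.69, 5.24 and 5.52 in knockout arrays, against 5.52, 5.67 and 5.92 as the lowest, median and highest in wild type arrays. The difference was -0.16 (SE 0.12, 95% interval -0.41 to 0.09). The squalene synthase Fdft1 (-0.09, SE 0.17), the lanosterol synthase Lss (-0.13, SE 0.17), the lanosterol demethylase Cyp51 (0.12, SE 0.16) and the final reductase Dhcr7 (-0.05, SE 0.15) overlapped between genotypes. So did the sterol dehydrogenase Nsdhl (0.07, SE 0.28), the ketosteroid reductase Hsd17b7 (0.00, SE 0.16) and the desaturase Sc5d (0.11, SE 0.27). Nsdhl met the rule with the hepatocyte mean as a covariate (0.64, SE 0.27, adjusted p = 0.576 in limma) and turned to -0.55 (SE 0.29) with the macrophage mean. Dhcr7 met it, as lower, only with both means (-0.79, SE 0.29, adjusted p = 0.988), and was 0.10 (SE 0.19) with the hepatocyte mean and -0.41 (SE 0.15) with the macrophage mean. Of all 22206 clusters the rule called 487 higher with the hepatocyte mean and 383 lower with both means. With genotype alone it called 149 higher and 79 lower. Over both synthesis arms the mean level of the 16 genes was 7.37 ± 0.10 (SD, n = 5) in knockout arrays and 7.35 ± 0.14 (SD, n = 6) in wild type arrays.

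**Figure D4:**
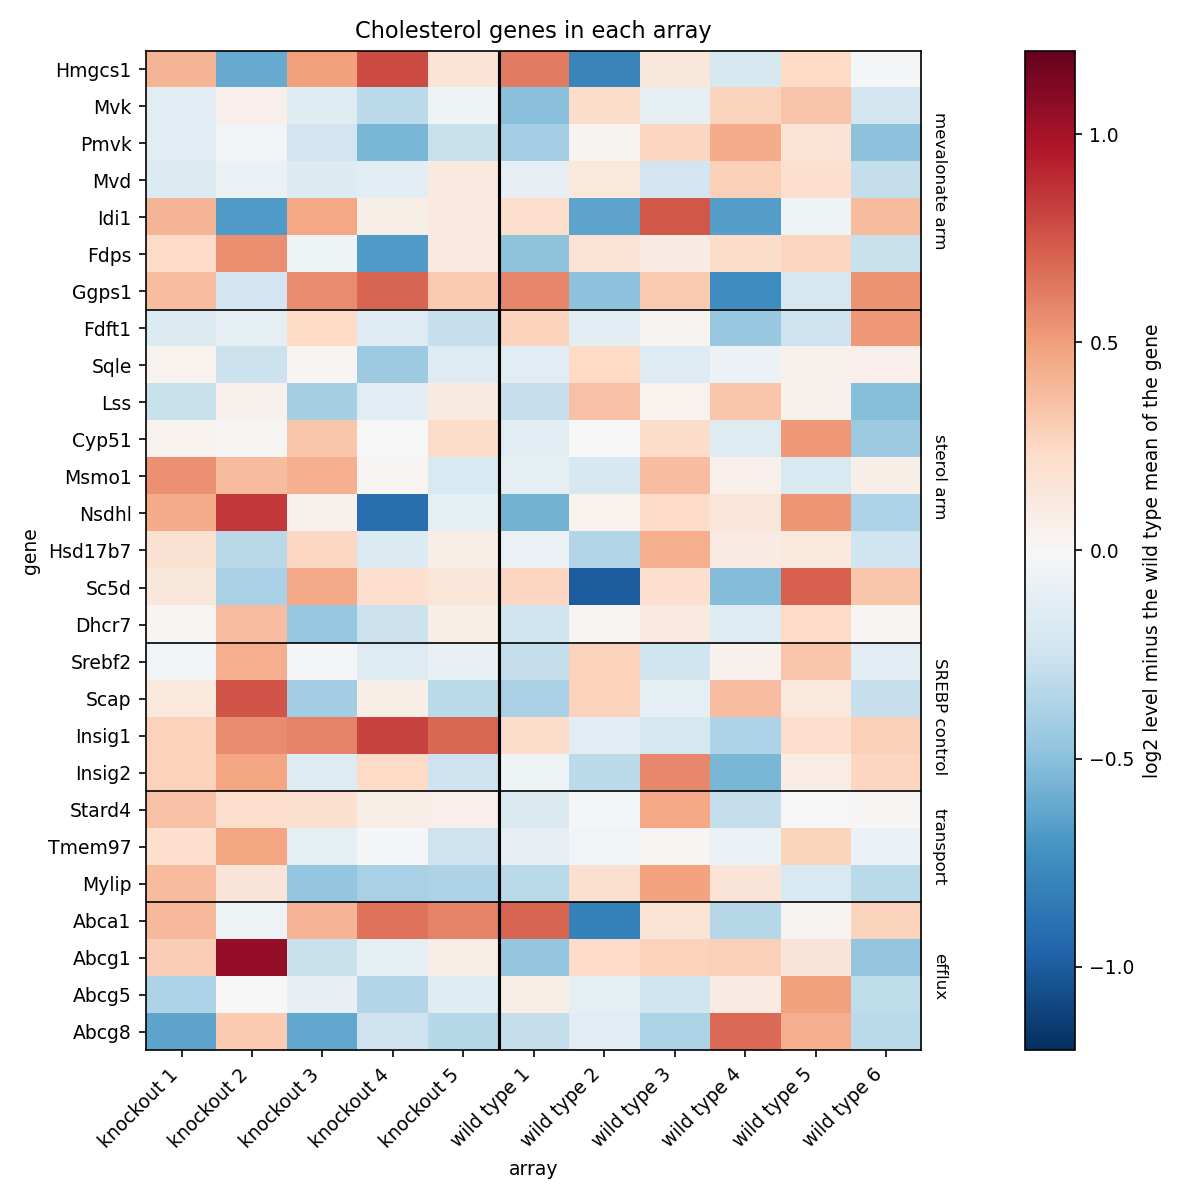
Log2 level of each measured gene minus its wild type mean (colour), with 5 knockout arrays left of the line and 6 wild type arrays right of it. Insig1, Cyp51 and Stard4 are above their wild type mean in all knockout arrays and Pmvk is below it in all, and knockout array 2 is the highest for Srebf2, Scap and Abcg1. For Cyp51 the margin is slight, with 6.29 and 6.28 in knockout arrays 2 and 4 against a wild type mean of 6.28.

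Carriers and turnover factors of sterols were not called either. Stard4, a cytosolic cholesterol carrier and SREBP target, read 8.18, 8.04, 8.02, 7.90 and 7.89 in knockout arrays, against 7.54, 7.83 and 8.29 in wild type arrays (lowest, median and highest). Each knockout array exceeded the wild type mean, yet wild type array 3 was the highest of all (0.18, SE 0.13, exact permutation p = 0.188). Tmem97, a sterol-responsive membrane protein, differed by 0.06 (SE 0.13). Mylip, the ubiquitin ligase that LXR raises to remove lipoprotein receptors, differed by -0.14 (SE 0.19). Knockout arrays 1 and 2 read 11.59 and 11.37, within the wild type range of 10.89 to 11.69. Knockout arrays 3 to 5 read 10.75, 10.82 and 10.84, below that range.

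Among the exporters Abca1, which loads cholesterol onto lipid-poor apolipoproteins, had the largest difference. It read 10.43, 9.98, 10.45, 10.70 and 10.64 in knockout arrays, against 9.23, 10.14 and 10.74 as the lowest, median and highest in wild type arrays. Of the 5 knockout arrays 4 exceeded the wild type mean, but wild type array 1 was the highest (0.40, SE 0.23, exact permutation p = 0.169). The difference was 0.55 (SE 0.25) in the low intron control arrays and 0.05 (SE 0.19) in the high ones. With the macrophage mean added as a covariate Abca1 met the rule (0.66, SE 0.30, adjusted p = 0.323 in limma). In that fit the rule called 1175 of all 22206 clusters higher, against 149 with genotype alone.

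Abcg1, which loads cholesterol onto high density lipoprotein, read 8.85, 9.61, 8.29, 8.45 and 8.64 in knockout arrays. In wild type arrays it ran from 8.08 over a median of 8.75 to 8.84. Knockout array 2, with the highest macrophage mean, was far above the rest (0.21, SE 0.23, exact permutation p = 0.459). Without it the difference was 0.00 (SE 0.19). The difference turned to -0.36 (SE 0.23) with the macrophage mean as a covariate and met the rule with the hepatocyte mean (0.59, SE 0.27, adjusted p = 0.585 in limma). With the hepatocyte mean the rule called 487 of all 22206 clusters higher, against 149 with genotype alone. Abcg5 and Abcg8 form the pair that exports sterols from hepatocytes into bile. Abcg5 read 6.03 to 6.41 in knockout arrays and 6.10 to 6.89 in wild type arrays (-0.19, SE 0.14). Abcg8 read above the array's antigenomic background mean in 2 of 5 knockout arrays and 4 of 6 wild type arrays, so its difference (-0.31, SE 0.23) says little of expression. With the macrophage mean as a covariate Abcg8 met the rule (-0.85, adjusted p = 0.244 in limma), where 520 of all clusters were called lower, against 79 with genotype alone. Hepatocyte markers were lower in the knockout arrays as well. In the fit with the hepatocyte mean both differences turned, to 0.12 for Abcg5 and 0.16 for Abcg8. That mean itself differed between genotypes (8.25 in knockout and 9.08 in wild type arrays), and the part of hepatocytes was not tested. The other 26 genes read above that background in all arrays.

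The precision differed between genes. For 17 of the 27 the 95% interval lay within a 1.5-fold change in both directions, so that a larger change lay outside it, and for 10 it reached one. The intervals were widest for Nsdhl (-0.53 to 0.67), Idi1 (-0.51 to 0.66), Sc5d (-0.47 to 0.69) and Hmgcs1 (-0.32 to 0.82). The pooled SD within genotypes was 0.30 at the median of the 27 genes and 0.24 over all clusters. It was 0.53 for Nsdhl, 0.52 for Idi1, 0.51 for Sc5d and 0.50 for Hmgcs1, against 0.17 for Sqle and 0.19 for Mvd. The small SD of Sqle is that of a dim gene. Sqle lay nearest the antigenomic background mean in knockout array 2 (5.42 against 5.04) and furthest above it in wild type array 6 (5.74 against 4.67).

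Some of the 27 genes did not overlap between the high and low intron control arrays. Ggps1 read 9.73 or more in the 4 high intron control arrays and 9.56 or less in the 7 low ones. Fdps and Abcg1 went the other way, with means of 6.30 and 8.23 in the high arrays and 6.91 and 8.90 in the low ones and no overlap. Mvk was also lower in the high arrays (6.83 against 7.21), by a gap of 6.98 to 6.99 between the nearest arrays. With these 4 of 27 genes not overlapping, the share was near that of all clusters, 14.1% (6.89% higher and 7.17% lower in the high arrays). Knockout array 2 was the highest of all arrays for 7 of 27 genes, and wild type arrays 2 and 4 were each the lowest for 5.

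**Figure D5:**
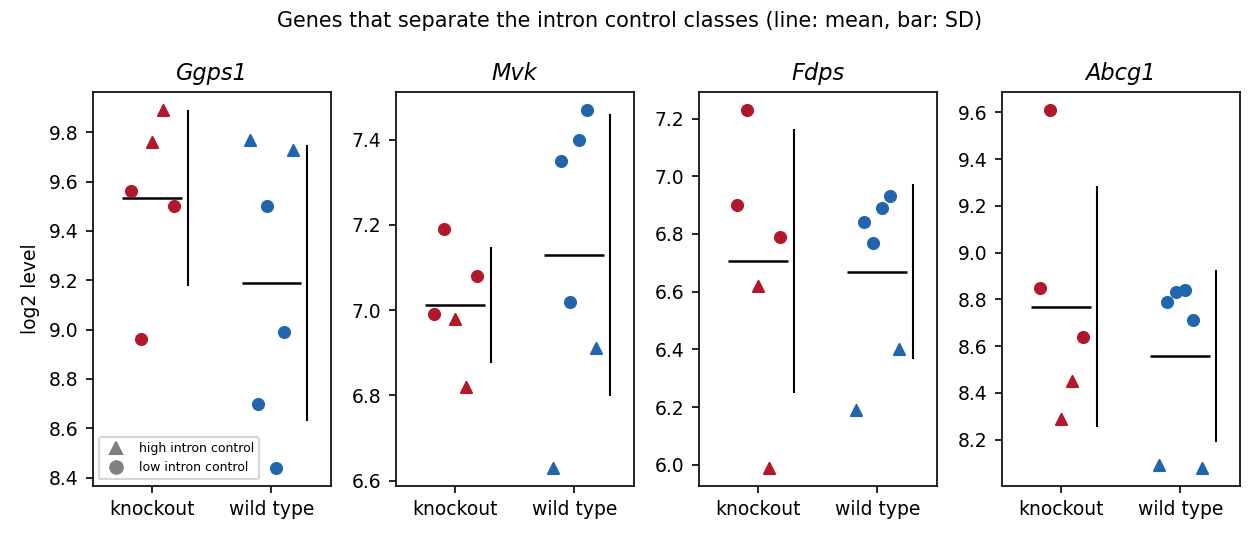
Log2 level (y axis, a scale of its own for each gene) of the 4 genes whose levels do not overlap between high intron control arrays (triangles) and low ones (circles), in 5 knockout arrays (red, left) and 6 wild type arrays (blue, right), with the mean and SD. Ggps1 is higher in the high class and Mvk, Fdps and Abcg1 are lower, in both genotypes.

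Of 46 further genes of sterol handling 34 were measured, and 0 met the rule in either direction. With an unadjusted p of at most 0.05 in limma, 2 were higher and 4 lower, against 2.61% and 3.78% of all clusters. The median difference of the 34 was 0.10. Of 10 listed genes of sterol sensing 7 were measured, and 7 of 7 lay above 0 (median 0.18), against 46% of all clusters. Their mean level was 8.84 to 9.10 in knockout arrays and 8.52 to 8.93 in wild type arrays, and knockout array 2, with the highest macrophage mean, was the highest. Erlin1, a membrane protein that binds the SREBP, Scap and Insig complex, averaged 8.35 ± 0.19 (SD, n = 5) in knockout arrays and 8.00 ± 0.30 (SD, n = 6) in wild type arrays (0.35, SE 0.15, limma p = 0.0376, exact permutation p = 0.0563). Mbtps1, the protease that makes the first SREBP cut, differed by 0.18 (SE 0.12). Of the synthesis genes outside the 27, the isomerase Ebp differed by 0.05 (SE 0.22) and the reductase Lbr by 0.10 (SE 0.14).

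Of 14 uptake and trafficking genes, Npc1, which releases lysosomal cholesterol, averaged 8.22 ± 0.26 (SD, n = 5) in knockout arrays and 7.83 ± 0.26 (SD, n = 6) in wild type arrays (0.39, SE 0.15, limma p = 0.0242, exact permutation p = 0.0433). Osbpl5, a lipid transfer protein, differed by -0.23 (SE 0.10, limma p = 0.0397, exact permutation p = 0.0173). The LXR receptor Nr1h3 (0.67, SE 0.43) and the phospholipid transfer protein Pltp (0.68, SE 0.36) did not reach an unadjusted p of 0.05, and both were highest in knockout array 2. Of 6 oxysterol and bile acid enzymes 5 lay below 0 (median -0.32). Cyp8b1, the sterol hydroxylase of cholic acid synthesis, differed by -0.39 (SE 0.12, limma p = 0.00579, exact permutation p = 0.00866), but read above the antigenomic background mean in only 3 of 5 knockout arrays. Cyp46a1, a cholesterol hydroxylase, differed by -0.39 (SE 0.15, limma p = 0.0249, exact permutation p = 0.0433). Lcat, which esterifies cholesterol in plasma lipoproteins and is named after its value was seen, differed by -0.54 (SE 0.24, limma p = 0.0469, exact permutation p = 0.0801). Hepatocyte markers were lower in the same comparison (median -0.88) and macrophage markers higher (median 1.15), and their part in these values was not tested. Of the 34 genes 0 passed an adjusted p of 0.05 over all clusters in limma.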

How the data were processed

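Mouse Clariom S arrays from 11 samples (5 knockout, 6 wild type) were used. The submitters' processing notes name Affymetrix Expression Console and RMA. RMA corrects background, gives the probe values of all arrays 1 distribution and summarizes the probes of each cluster. A shift common to most genes is thereby largely removed. The medians of the tested clusters still ran from 6.61 (knockout array 3) to 6.75 (wild type array 5). The authors' deposited values are log2 levels, a scale taken from their range, and the build and the way the cells were isolated are not given in the sources used here. A total of 22206 clusters were tested and 6640 control rows were left out. The platform annotation named 19572 clusters by 1 symbol and left 2634 unnamed. Where a symbol had several clusters (55 symbols), the brightest was used.

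The test was limma 3.58.1 under R 4.3.3, with lmFit on genotype alone, eBayes, and p-values adjusted by Benjamini-Hochberg over every cluster. Differences are knockout minus wild type, with limma's standard error. For single genes a two-sided exact permutation test ran over the 462 splits of the arrays (smallest p 0.00216). The number of arrays limits the precision. All 27 measured genes are named, and of the further lists the 2 of smallest p in each. The genes and lists were chosen with earlier results of these data known. Replicate numbers were treated as names, since deviations of same-numbered arrays correlated between -0.32 and 0.39.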

Additional observations from a re-analysis of the deposited data

Results flagged for a closer look

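In 3 of 54 groups of arrays (27 genes in 2 genotypes) the highest or lowest array stood apart from its group by Dixon's criterion, which chance meets in about 1 of 20 groups. Srebf2 read 10.18 in knockout array 2 and 9.59 to 9.73 in the other knockout arrays. Mvd read 7.55 in knockout array 5 and 7.27 to 7.35 in the other knockout arrays. Tmem97 read 7.60 in wild type array 5 and 7.24 to 7.35 in the other wild type arrays.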

How the results depend on the processing

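The 27 differences were recomputed under 25 alternatives, of which the intron control class as a block and within each class were chosen after seeing the data. Of 675 such values 590 were counted as keeping direction and side of the rule, 11 (all Insig1) kept direction and lost the call, 7 kept direction and met the rule, and 67, all of genes not called, turned sign. The cause of these turns was not tested. Hsd17b7, whose difference was 0.00 with genotype alone, was counted among the 590 at either sign and is left out of the lists below. It ran from -0.11 to 0.57, and from -0.07 to 0.09 with single arrays left out. The count of genes higher by the rule (1) ran from 0 to 1 with single arrays left out, was 0 with repeated quantile normalization, the intron control mean or class, both marker means or the high class alone, 2 with the hepatocyte mean (Nsdhl and Abcg1, not Insig1) and 4 with the macrophage mean (Insig1, Hmgcs1, Ggps1 and Abca1). Over all clusters the rule called 149 higher and 79 lower, against 487 and 107 with the hepatocyte mean, 1175 and 520 with the macrophage mean, 93 and 383 with both, 99 and 146 with array weights, 254 and 105 in the low class and 149 and 136 in the high class. With single arrays left out these counts ran from 111 to 245 higher and from 37 to 138 lower. The count lower by the rule (0) was 1 with the macrophage mean (Abcg8) or both means (Dhcr7). The median (0.04) ran from -0.07 to 0.09 with single arrays left out and was -0.06 with array weights and -0.22 with the macrophage mean. Single arrays left out gave -0.16 to 0.05 for Dhcr7, -0.18 to 0.01 for Fdft1, -0.09 to 0.22 for Fdps, -0.06 to 0.26 for Idi1, -0.13 to 0.31 for Nsdhl, -0.09 to 0.25 for Sc5d, -0.14 to 0.16 for Scap, -0.07 to 0.09 for Srebf2 and -0.05 to 0.13 for Tmem97. Sign turned with the hepatocyte mean for Abcg5 (0.12), Abcg8 (0.16), Dhcr7 (0.10), Ggps1 (-0.05), Idi1 (-0.28), Mvd (0.04), Mvk (0.09) and Pmvk (0.01). It turned with the macrophage mean for Abcg1 (-0.36), Fdft1 (0.15), Fdps (-0.40), Nsdhl (-0.55), Scap (-0.42), Srebf2 (-0.29) and Tmem97 (-0.22). With both means it turned for Abcg1 (-0.41), Abcg5 (0.17), Fdft1 (0.19), Fdps (-0.17), Insig2 (-0.29), Scap (-0.45), Srebf2 (-0.09) and Tmem97 (-0.03). With array weights it turned for Fdps (-0.06), Insig2 (-0.04), Nsdhl (-0.13), Scap (-0.11), Srebf2 (-0.04) and Tmem97 (-0.06). With repeated quantile normalization it turned for Nsdhl (-0.01), Scap (-0.05) and Srebf2 (-0.06). Within the low intron control arrays it turned for Cyp51 (-0.05), Dhcr7 (0.10) and Fdft1 (0.01), and within the high ones for Idi1 (-0.03), Insig2 (-0.06), Lss (0.12), Mvd (0.05), Mvk (0.13) and Pmvk (0.06). With the replicate block over numbers 1 to 5 Insig1 was 0.65 (adjusted p = 0.618 in limma), and Fdft1 (0.01), Fdps (-0.02), Nsdhl (-0.01) and Scap (-0.01) turned sign. The block changed no call. No knockout array correlated best with the wild type array of its own number.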
